A study of Homo sapiens with 3 samples.

Results

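The 10 genes described here belong to the ATF4 stress response and the serine synthesis pathway: *ATF4*, *DDIT3*, *DDIT4*, *SESN2*, *TRIB3*, *CHAC1*, *ASNS*, *PHGDH*, *PSAT1* and *SHMT2*. They were taken by symbol from the transcript names, on chromosomes only, and are 10 of 60506 genes listed. HaCaT cells, an immortalized human keratinocyte line, were transfected with 10 nM of SRSF5 siRNA No. 1 (siRNA 1), SRSF5 siRNA No. 2 (siRNA 2) or a control siRNA, in every case with the lipid reagent RNAiMAX, and RNA was sequenced in 1 library for each transfection. The cells of the control carry the genotype label WT and those of the siRNAs the label SRSF5 knockdown, SRSF5 being an RNA-binding protein of the SR family that takes part in splice site choice. There were thus 2 libraries with an siRNA against SRSF5, each with a different siRNA, and 1 control library, so no siRNA had a replicate of its own. The labels name no repeat cultures, and the p-values below therefore speak only of how far these libraries lay apart, which may be technical.

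ATF4 is a transcription factor whose translation goes up when the initiation factor eIF2 is phosphorylated by one of its kinases, which respond to amino acid shortage, stress of the endoplasmic reticulum, heme shortage or double-stranded RNA. It then raises transcription of genes for amino acid synthesis and uptake and, under lasting stress, of genes that restrain growth. Because ATF4 is controlled in large part by translation, the level of its mRNA need not follow its activity. The serine pathway makes serine from a glycolytic intermediate, and keratinocytes use serine for protein, for glycine and for one-carbon units.

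ATF4 binds, with a C/EBP protein as partner, to an element with the core TGATGNAA, called the C/EBP-ATF response element. RefSeq promoter windows (GRCh38.p14, 250 bases before to 50 after a start) were held for 9 of the 10 genes. The core was searched on both strands as TGATGNAA and TTNCATCA, and matches may overlap other motifs. It was found in windows of 2 of the 9 genes, *ASNS* and *CHAC1*, and in 4.46% of the 27305 genes with a window. These 2 windows are shown because they alone held a match. Both genes were lower in each SRSF5 siRNA library than in the control. *DDIT4*, *TRIB3* and *PSAT1* were also lower in each, and their windows held no match. *SHMT2*, lower in each as well, had no window. The *ASNS* window (chr7:97872359-97872658, minus strand) holds the core 68 to 61 bases before the start, and the *CHAC1* window (chr15:40953221-40953520, plus strand) holds it on the opposite strand, 209 to 202 bases before the start. Capitals mark the 8 bases of the core, and both sequences run 5′ to 3′ on the strand of the gene.
ASNS: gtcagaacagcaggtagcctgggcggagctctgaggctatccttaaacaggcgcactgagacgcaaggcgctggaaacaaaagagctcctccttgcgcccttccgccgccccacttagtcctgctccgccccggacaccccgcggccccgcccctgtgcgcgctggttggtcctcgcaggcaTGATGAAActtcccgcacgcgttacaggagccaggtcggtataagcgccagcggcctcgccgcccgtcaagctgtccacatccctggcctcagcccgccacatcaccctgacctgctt
CHAC1: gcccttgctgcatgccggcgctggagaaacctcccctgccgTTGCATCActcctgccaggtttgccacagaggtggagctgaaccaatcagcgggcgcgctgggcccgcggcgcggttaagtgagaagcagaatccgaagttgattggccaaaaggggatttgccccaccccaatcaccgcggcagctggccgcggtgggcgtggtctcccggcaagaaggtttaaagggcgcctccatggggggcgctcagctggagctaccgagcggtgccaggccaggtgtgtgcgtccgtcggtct
A match is a run of letters and not a measured binding site, and windows of this length leave out elements farther away.

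SRSF5 itself stood at 47.1% of the control with siRNA 1 and 19.8% with siRNA 2, as the sum of FPKM (fragments per kilobase of transcript, scaled to the library total) over its transcripts. In this table a read counts for each transcript it overlaps, so a sum over the transcripts of a gene grows with their number and is compared only between libraries, for a gene or a fixed list of genes. The FPKM of the highest transcript is per length and serves for comparing genes. Log2 differences are of summed FPKM plus 1, siRNA library minus control, a scale that understates differences of low genes. The depth behind a value is given as read equivalents, the reads credited to the deepest transcript of a gene after sharing. The percent of the control printed with an exact 95% binomial interval was computed from these, rounded to whole reads. It can differ a little from the quotient of the FPKM values, and the interval covers counting error of that transcript only. In a gene with several transcripts it is wider than an interval from all reads of the gene, which was not computed. The deepest transcripts of all genes held 17708195 equivalents with siRNA 1, 15864985 with siRNA 2 and 18323681 in the control. All 12 keratinocyte markers listed were above the filter described next. Markers of other cell types were also summed: 6 fibroblast markers had 5.62 FPKM with siRNA 1, 6.43 with siRNA 2 and 2.92 in the control, and 3 endothelial markers had 1.91, 2.44 and 3.71. The 4 immune markers summed to 19.99 FPKM with siRNA 1, 18.1 with siRNA 2 and 29.1 in the control, of which the lysosomal protein CD68 held 19.6, 17.9 and 28.9, and the 4 melanocyte markers summed to 0.371, 0.609 and 0.726. Of these markers *COL1A1*, a fibroblast collagen, was called higher in both siRNA libraries by the 1.5-fold limit given next (0.78 with siRNA 1 and 0.75 with siRNA 2), and the endothelial cadherin *CDH5* was called lower in both (-1.27 and -0.86). The part of these markers in the results was not tested. TYR and MLANA, which define melanocytes, were listed at 0.

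All 10 genes passed the filter of a mean summed FPKM of 1 that left 13923 genes. A gene was called when it was at least 1.5-fold from the control (0.58 on the log2 scale). Of the 10 genes, 2 were called lower in both siRNA libraries, *DDIT4* and *CHAC1*, where 1.47% of all genes tested were, and 0 were called higher in both, where 3.19% were. With siRNA 1 alone 3 were called lower, with *PSAT1* as the third (5.47% of all genes), and 0 higher (6.18%). With siRNA 2 alone the same 2 genes, *DDIT4* and *CHAC1*, were called lower (10.1% of all genes), and *DDIT3* alone was called higher (13.2%). The median log2 difference of the 10 genes was -0.37 with siRNA 1 and -0.14 with siRNA 2, and over all genes tested it was -0.02 and 0.05. With the highest transcript in place of the sum 0 of the 10 genes were called in both. *DDIT4* then lay just inside the limit with siRNA 2, and for *CHAC1* the added 1 FPKM is large beside that transcript's level. With a pseudocount of 0.1 FPKM the summed *CHAC1* differences were -1.55 with siRNA 1 and -0.92 with siRNA 2. In limma, fitted to all 13923 genes with Benjamini-Hochberg adjustment, none of the 10 passed (adjusted p = 1.00 for each), and 0 of all genes passed (0% of those tested) where 416 had an unadjusted p below 0.05. None of the 10 genes was among those 416. Limma with a robust spread called 3 genes, ALPP, SERPINB7 and OLR1. The spread of a gene in limma starts from the difference between the siRNAs, with 1 residual degree of freedom. Limma then draws it toward a trend over all genes, so the SE and p of a gene rest on other genes as well. These are bulk libraries, in which fewer cells of a kind and less RNA per cell cannot be told apart.

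**Figure D1:**
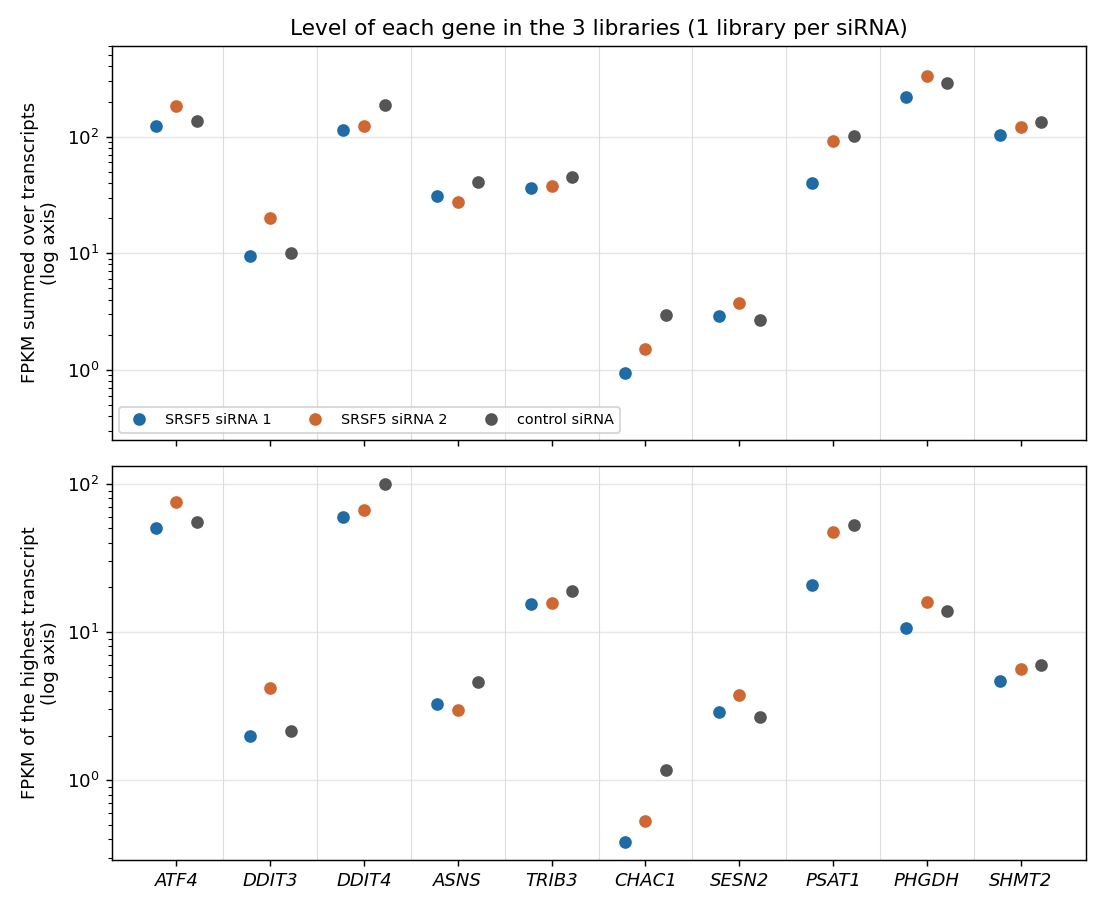
FPKM of each of the 10 genes on log axes, summed over transcripts in the upper panel and of the highest transcript in the lower panel, with 1 point for each library from left to right SRSF5 siRNA 1, SRSF5 siRNA 2 and control siRNA. PSAT1 stands apart with siRNA 1 (39.8 summed FPKM, against 101 in the control), and the siRNA 2 point of DDIT3 lies above the other two.

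The order of the 10 genes by the FPKM of the highest transcript was alike in the 3 libraries. *DDIT4*, *ATF4* and *PSAT1* held the first 3 places in each library, with *ATF4* ahead of *DDIT4* with siRNA 2 only. *TRIB3* and *PHGDH* held the next 2 places, *SHMT2* held place 6, and *CHAC1* was the lowest in each library. *ASNS*, *SESN2* and *DDIT3* lay between 1.99 and 4.60 FPKM, and *DDIT3* stood at place 9 with siRNA 1, 7 with siRNA 2 and 9 in the control. With 1 library per transfection the spread of these levels between replicates is not known, so the order of neighbours is a description. It also depends on how many listed transcripts share the reads of a gene, and is no order of expression. By summed FPKM *PHGDH*, with 34 listed transcripts, was above *DDIT4*, with 3, in the control (288 and 188).

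Of the 2 stress transcription factors, *DDIT3* alone was called, higher with siRNA 2. *ATF4* (ENSG00000128272.14, chromosome 22, 39519695 to 39522685, plus strand) had a summed FPKM of 123.2 with siRNA 1, 184 with siRNA 2 and 135 in the control. Its highest transcript was at 50.2 FPKM with siRNA 1, 75.1 with siRNA 2 and 55.2 in the control. In its deepest transcript the level with siRNA 1 was 91.1% of the control (95% interval 86.8 to 95.7), and with siRNA 2 it was 136% (130 to 142). These intervals rest on 3041, 4430 and 3517 read equivalents with siRNA 1, with siRNA 2 and in the control and do not overlap each other, but the log2 differences of -0.13 and 0.44 both miss the limit of 1.5-fold. Over both siRNAs *ATF4* differed from the control by 0.15 ± 0.41 (SD, n = 2), so the siRNAs differed from each other by more than their mean differed from the control. Processed copies of the gene took few reads, with *ATF4P4* at 3.25, 4.94 and 2.72 FPKM and *ATF4P3* at 1.37, 2.40 and 1.55 FPKM with siRNA 1, with siRNA 2 and in the control.

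*DDIT3* encodes CHOP, a C/EBP family factor that ATF4 induces and that promotes cell death under lasting stress. It lies on chromosome 12 (ENSG00000175197.12, 57516588 to 57521737, minus strand). Its summed FPKM was 9.37 with siRNA 1, 20.1 with siRNA 2 and 10.1 in the control, and its highest transcript was at 1.99, 4.18 and 2.16 FPKM in the same libraries. The siRNA 2 library alone was high, with the deepest transcript at 202% of the control (95% interval 149 to 275), while with siRNA 1 it was at 93.0% (64.6 to 134). The deepest transcript held 60.5 read equivalents with siRNA 1, 127 with siRNA 2 and 68.0 in the control. From this transcript alone the level with siRNA 1 cannot be told from the control. On the log2 scale the differences were -0.10 and 0.93 (mean 0.42 ± 0.73, SD, n = 2; limma SE 0.49, adjusted p = 1.00). Exons of *DDIT3* share 105 bases with AC022506.1 on the same strand, and 355 bases with MARS and 58 with MBD6 on the opposite strand. AC022506.1 was at 1.46 summed FPKM with siRNA 1, 3.22 with siRNA 2 and 1.65 in the control. MBD6 was at 37.4 summed FPKM with siRNA 1, 54.6 with siRNA 2 and 40.4 in the control, and MARS, a tRNA synthetase gene, at 133, 96.9 and 151. The first and second of these were thus highest in the library in which *DDIT3* was highest, and MARS was lowest there. Counts were read as made by strand, from the strand check described below, and the part of shared reads was not tested.

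Of the 2 genes that restrain growth signalling, *DDIT4* was called and *SESN2* was not. *DDIT4*, also called REDD1, encodes an inhibitor of the kinase complex mTORC1 that ATF4, glucocorticoids, hypoxia and p53 can each induce. *DDIT4* (ENSG00000168209.5, chromosome 10, 72273924 to 72276036, plus strand) was lower in both siRNA libraries, with a summed FPKM of 114 with siRNA 1, 123.02 with siRNA 2 and 188 in the control. Its highest transcript was at 59.8 FPKM with siRNA 1, 66.7 with siRNA 2 and 100.5 in the control. The deepest transcript was at 59.5% of the control with siRNA 1 (95% interval 57.3 to 61.8) and 66.3% with siRNA 2 (64.0 to 68.8). Its deepest transcript held the most read equivalents of any single transcript of the 10 genes in each library. They were 4408, 4797 and 7811 with siRNA 1, with siRNA 2 and in the control. Genes with more listed transcripts share out their reads more widely, so this does not rank the depth of whole genes. The log2 differences were -0.72 and -0.61, or -0.67 ± 0.08 (SD, n = 2), and limma gave an SE of 0.37 and an adjusted p of 1.00. On the highest transcript the siRNA 2 difference was -0.58, just inside the limit of 1.5-fold. The antisense gene *DDIT4-AS1*, which shares 847 exon bases on the opposite strand, was at 0.363 FPKM with siRNA 1, 0.257 with siRNA 2 and 1.01 in the control.

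*SESN2* encodes sestrin 2, which senses leucine and also restrains mTORC1, and it is induced by ATF4 and by p53. *SESN2* (ENSG00000130766.5, chromosome 1, 28259518 to 28282491, plus strand) had 1 transcript, at 2.89 FPKM with siRNA 1, 3.76 with siRNA 2 and 2.66 in the control. Both siRNA libraries were above the control, at 109% with siRNA 1 (95% interval 94.8 to 125) and 141% with siRNA 2 (124 to 161). The first of these cannot be told from the control at 423 and 410 read equivalents, and neither passed the limit of 1.5-fold (0.09 and 0.38 on the log2 scale). It was the single gene of the 10 above the control with both siRNAs. A second copy of the transcript, listed on another scaffold and left out here, had the same values of 2.89, 3.76 and 2.66 FPKM.

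*TRIB3* encodes a pseudokinase that ATF4 and CHOP induce and that feeds back on ATF4. *TRIB3* (ENSG00000101255.11, chromosome 20, 362835 to 397559, plus strand) was a little lower in both siRNA libraries, at 35.9 summed FPKM with siRNA 1, 37.5 with siRNA 2 and 45.5 in the control. Its highest transcript was at 15.4 FPKM with siRNA 1, 15.7 with siRNA 2 and 19.0 in the control. The siRNAs were close here, with the deepest transcript at 81.1% of the control with siRNA 1 (95% interval 75.6 to 87.1) and 82.9% with siRNA 2 (77.2 to 89.0). The log2 difference was -0.30 ± 0.04 (SD, n = 2), below the limit of 1.5-fold. Both differences share the control library, whose variation this SD leaves out. Limma, whose spread is drawn toward that of all genes, gave an SE of 0.38 and an adjusted p of 1.00.

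*CHAC1* encodes an enzyme that breaks down glutathione and is induced through ATF4 and CHOP. *CHAC1* (ENSG00000128965.13, chromosome 15, 40952962 to 40956512, plus strand) had the lowest share of the control of the 10 genes with siRNA 1 and with siRNA 2. Its summed FPKM was 0.937 with siRNA 1, 1.502 with siRNA 2 and 2.93 in the control, and its highest transcript was at 0.384 FPKM with siRNA 1, 0.534 with siRNA 2 and 1.17 in the control. The deepest transcript was at 33.4% of the control with siRNA 1 (95% interval 20.4 to 52.9) and 46.5% with siRNA 2 (30.2 to 70.3) from whole reads, and the FPKM quotient for siRNA 1 was 32.9%. It held 24.7 read equivalents with siRNA 1, 33.5 with siRNA 2 and 79.0 in the control. In this transcript the level with siRNA 1 was 71.8% of that with siRNA 2, with an interval of 41.1 to 124. That interval includes no difference, but leaves out the reads credited to the other transcripts. By summed FPKM the quotient was 62.3%. The log2 differences were -1.02 and -0.65 (mean -0.84 ± 0.26, SD, n = 2), and limma gave an SE of 0.40 and an adjusted p of 1.00. With the highest transcript the siRNA 2 difference was -0.50, where the added 1 FPKM is larger than the level itself.

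**Figure D2:**
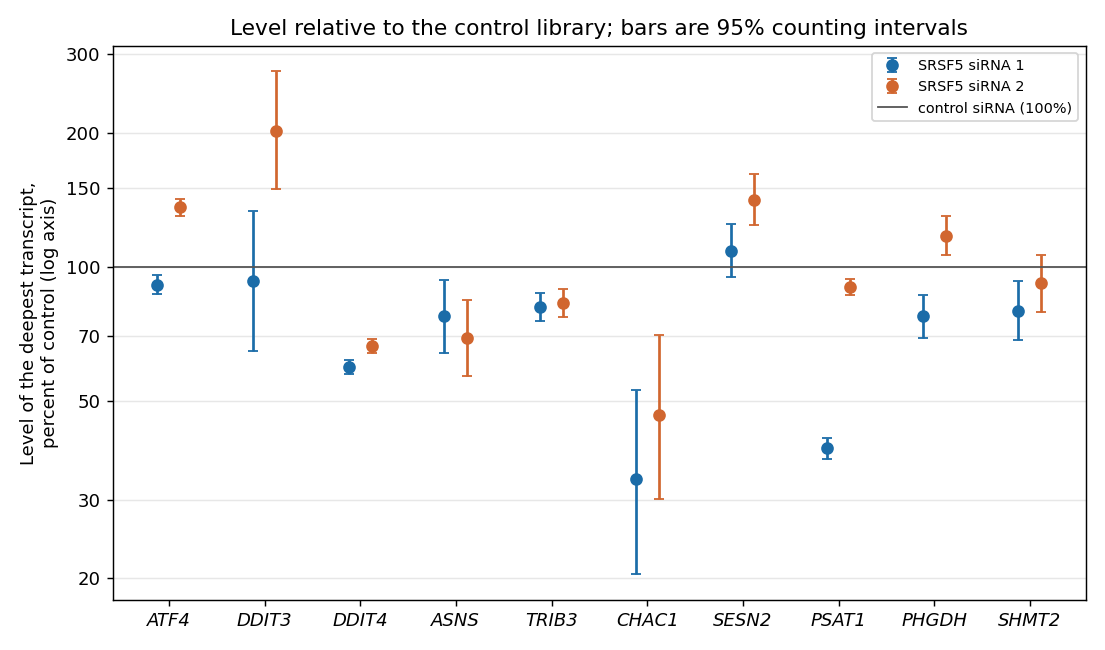
Level of the deepest transcript of each gene, from whole read equivalents, as a percent of the control library, on a log axis, with SRSF5 siRNA 1 left and SRSF5 siRNA 2 right for each gene. Bars are exact 95% intervals for counting error of that transcript alone, and the line at 100% is the control siRNA library. PSAT1 with siRNA 1 is at 39.1%, and DDIT4 and CHAC1 lie below the control with both siRNAs.

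Of the 4 amino acid synthesis genes among the 10, *PSAT1* alone was called, lower with siRNA 1. *ASNS* encodes asparagine synthetase, which makes asparagine from aspartate and glutamine and is a standard ATF4 target. *ASNS* (ENSG00000070669.17, chromosome 7, 97851677 to 97872542, minus strand) had a summed FPKM of 30.8 with siRNA 1, 27.5 with siRNA 2 and 40.6 in the control. Both siRNA libraries were below the control, and its highest transcript, a retained intron transcript, was at 3.28 FPKM with siRNA 1, 2.96 with siRNA 2 and 4.60 in the control. The deepest transcript stood at 77.5% of the control with siRNA 1 (95% interval 64.2 to 93.5) and 69.3% with siRNA 2 (56.9 to 84.3), on 197, 172 and 268 read equivalents with siRNA 1, with siRNA 2 and in the control. Log2 differences of -0.39 and -0.55 (mean -0.47 ± 0.11, SD, n = 2) missed the limit of 1.5-fold, although with the FPKM rescaled by the median difference of all genes the siRNA 2 value was -0.59, past the limit. The gene AC079781.5 shares 2415 exon bases with *ASNS* on the same strand, so reads there are shared out between both.

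*PHGDH* encodes phosphoglycerate dehydrogenase, the first enzyme of serine synthesis. *PHGDH* (ENSG00000092621.12, chromosome 1, 119648411 to 119744226, plus strand) had 34 listed transcripts and a summed FPKM of 221 with siRNA 1, 331 with siRNA 2 and 288 in the control. The siRNAs lay on opposite sides of the control, and the highest transcript was at 10.6 FPKM with siRNA 1, 15.9 with siRNA 2 and 13.9 in the control. In the deepest transcript the level was 77.4% of the control with siRNA 1 (95% interval 69.2 to 86.4) and 118% with siRNA 2 (106 to 130). The log2 differences of -0.38 and 0.20 (mean -0.09 ± 0.41, SD, n = 2) were below the limit of 1.5-fold.

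*PSAT1* encodes phosphoserine aminotransferase, the second enzyme of the pathway, and was far lower with siRNA 1. *PSAT1* (ENSG00000135069.14, chromosome 9, 78297125 to 78330093, plus strand) had a summed FPKM of 39.8 with siRNA 1, 91.3 with siRNA 2 and 101 in the control. Its highest transcript was at 20.8 FPKM with siRNA 1, 47.6 with siRNA 2 and 52.5 in the control. The siRNA 1 library alone was low, with the deepest transcript at 39.1% of the control (95% interval 37.0 to 41.3) on 1771 read equivalents, while siRNA 2 was at 90.1% (86.3 to 94.0) on 3980, with 4774 in the control. The log2 differences were -1.32 and -0.15, or -0.73 ± 0.83 (SD, n = 2), and limma gave an SE of 0.47 and an adjusted p of 1.00. With siRNA 1 the level of that transcript was 43.4% of that with siRNA 2 (41.0 to 45.9). Pseudogene copies of *PSAT1* were at 0.293 FPKM or less in each library.

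*SHMT2* encodes the mitochondrial serine hydroxymethyltransferase, which turns serine into glycine and a one-carbon unit. *SHMT2* (ENSG00000182199.11, chromosome 12, 57229573 to 57234935, plus strand) had 35 listed transcripts and a summed FPKM of 104 with siRNA 1, 121 with siRNA 2 and 133 in the control. Both siRNA libraries were below the control, and the highest transcript, a retained intron transcript, was at 4.69 FPKM with siRNA 1, 5.64 with siRNA 2 and 5.95 in the control. The deepest transcript stood at 79.7% of the control with siRNA 1 (95% interval 68.5 to 92.8) and 91.9% with siRNA 2 (79.3 to 106). The siRNA 2 interval includes no difference, but it rests on a single transcript among 35 that share the reads of the gene. The log2 differences were -0.35 and -0.13 (mean -0.24 ± 0.15, SD, n = 2).

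The siRNAs were then set against each other, since both target the same mRNA. Of the 10 genes, 2 were at least 1.5-fold lower with siRNA 1 than with siRNA 2, *PSAT1* (log2 difference -1.18) and *DDIT3* (-1.03), where 13.7% of all genes tested were, and 0 were at least 1.5-fold higher, where 10.5% were. *ATF4* and *PHGDH* followed at -0.58 each, just inside the limit. *ASNS* was the single gene of the 10 with a higher value with siRNA 1 (0.16). The interval of its deepest transcript, 90.7% to 138% of the level with siRNA 2, includes no difference, but leaves out its other transcripts. The median of the 10 genes was -0.33, and over all genes tested it was -0.07. Mitochondrial transcripts held 14.8% of read counts with siRNA 1, 10.0% with siRNA 2 and 13.7% in the control. Without them in the total the median of all genes moved by 0.02 with siRNA 1 and -0.06 with siRNA 2. Of the 12 keratinocyte markers, 7 were at least 1.5-fold higher with siRNA 2 than in the control, where 13.2% of all genes tested were. One marker, *ITGA6*, was lower (-0.82), where 10.1% of all genes were. The other 4, *KRT6A*, *KRT15*, *SFN* and *ITGB4*, lay between -0.34 and -0.11 with siRNA 2. For siRNA 1, 0 of the 12 were called higher (6.18% of all genes) and 2 lower (5.47%), *KRT15* (-1.52) and *PKP1* (-0.79). Among the 7 higher with siRNA 2 were *KRT14* at 1040, 3164 and 714 summed FPKM and *PKP1* at 41.7, 151 and 72.9 summed FPKM with siRNA 1, with siRNA 2 and in the control. Over the 12 markers the sum was 5825, 9188 and 5388 FPKM in the same order, and its part in the differences above was not tested. Each siRNA had 1 library, so the difference between siRNAs has no replicate check.

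**Figure D3:**
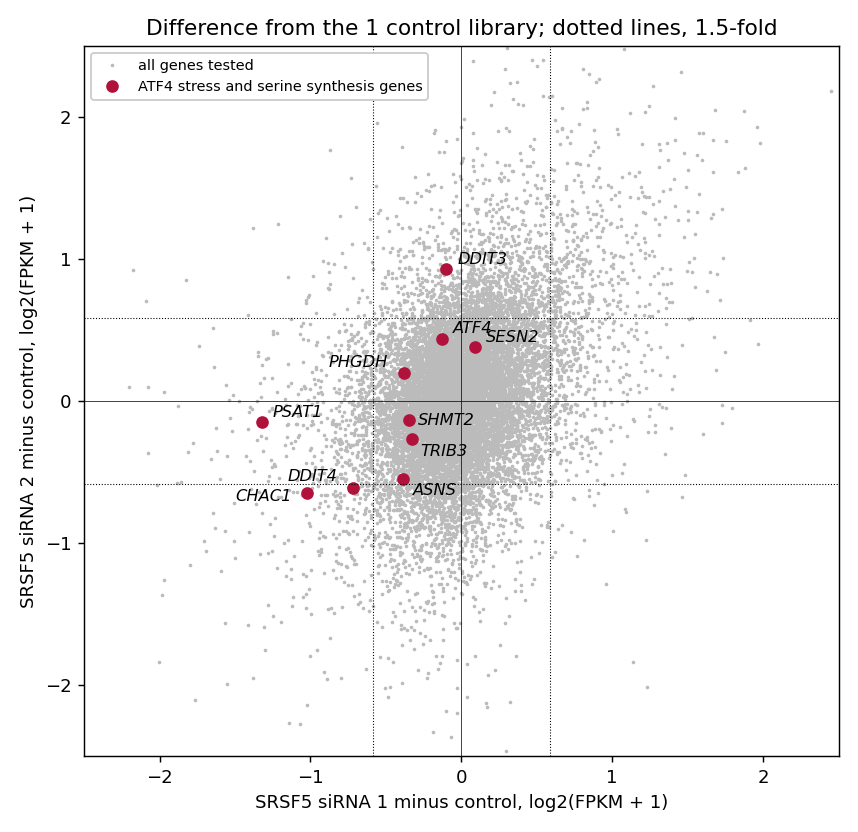
Log2 difference from the control library for siRNA 1 (x axis) and siRNA 2 (y axis) for all genes tested (grey) and the 10 genes (red), with dotted lines at 1.5-fold. Both differences share the 1 control library. CHAC1 and DDIT4 lie in the lower left corner, PSAT1 far left and DDIT3 high, and 36 genes lie outside the axes.

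Transcripts of a gene share reads, so their values are not separate evidence. With siRNA 1 all 34 *PHGDH* transcripts were below the control, at 72.6% to 82.2% of it, and with siRNA 2 all 34 were above it, at 108% to 122%. All 35 *SHMT2* transcripts were below the control, with 71.4% and 80.4% as the lowest and highest for siRNA 1, and 86.3% and 94.8% for siRNA 2. The widest range was that of *ASNS*, with 17 transcripts at 68.7% to 78.8% with siRNA 1 and 55.6% to 93.2% with siRNA 2. By transcript class, protein-coding *ASNS* transcripts (13) had a sum of 76.3% of the control with siRNA 1 and 69.2% with siRNA 2, and the retained intron transcripts (3) had 73.9% and 63.2%. For *PHGDH* the protein-coding transcripts (10) stood at 76.5% and those marked for nonsense-mediated decay (11) at 76.2% with siRNA 1, and both at 114% to 115% with siRNA 2. The coding transcript of *DDIT4* was at 59.5% and 66.4% of the control, and the 2 retained intron transcripts summed to 61.2% and 64.2%, with siRNA 1 and with siRNA 2.

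In 2 of the genes nested transcripts let a stretch of RNA be read on its own. The highest *ATF4* transcript splices out an intron of 602 bases (chromosome 22, 39520752 to 39521353) that another transcript keeps. The difference of their counts gave at least 26 read equivalents in the intron with siRNA 1, 30 with siRNA 2 and 25 in the control. Per base, this was 2.03% of the count credited to the spliced transcript with siRNA 1, 1.61% with siRNA 2 and 1.69% in the control. Exon reads are shared out among the transcripts and intron reads are not. These percents thus do not measure intron retention and serve only to compare libraries. In *PSAT1*, 795 bases are in the longer transcript and not in the highest one, among them an exon of 138 bases (chromosome 9, 78328051 to 78328188). Per base, the count credited there was 75.3% of that of the highest transcript with siRNA 1, 77.4% with siRNA 2 and 78.9% in the control. This ratio within the gene differed far less between libraries than the level of the gene. Reads of the common exons are shared out between both transcripts, so the ratio does not measure transcript use.

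**Figure D4:**
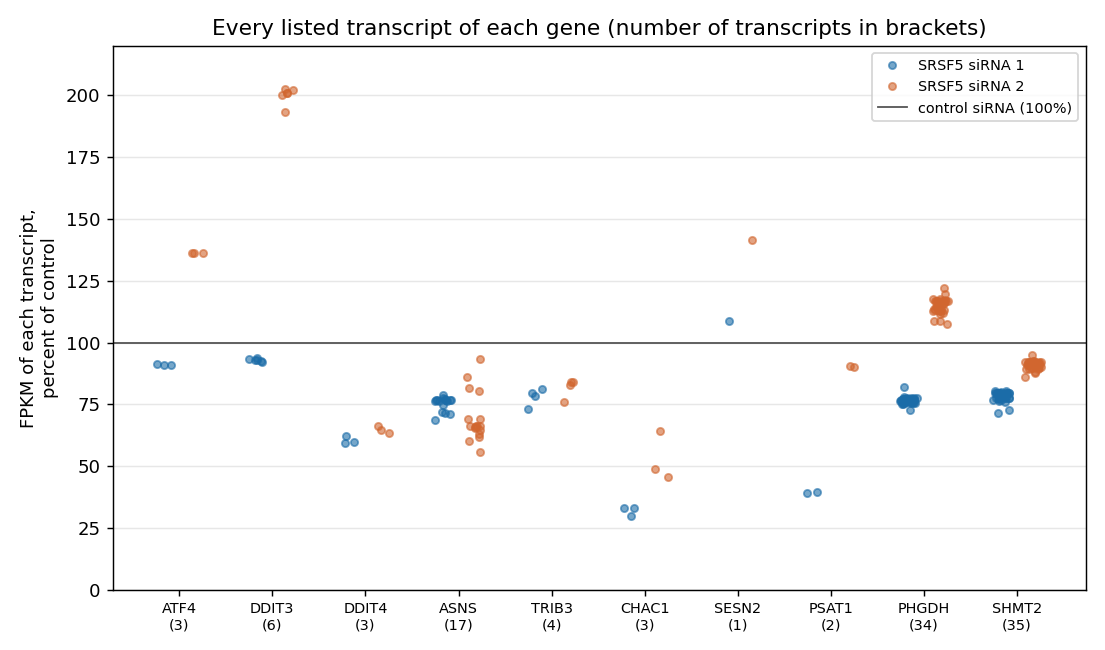
FPKM of every listed transcript as a percent of the control library for each gene, with SRSF5 siRNA 1 left and SRSF5 siRNA 2 right and the number of transcripts in brackets. Points of a gene share reads. The 34 PHGDH transcripts lie at 72.6% to 82.2% with siRNA 1, and the 17 ASNS transcripts spread over 55.6% to 93.2% with siRNA 2.

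Other genes of the pathway were read from lists of known members, and all members of each list are counted. Of 22 further ATF4 targets 19 were tested, and 2 were at least 1.5-fold higher (3.19% of all genes) and 2 lower (1.47% of all genes) in both siRNA libraries. The lower ones were *GDF15*, a stress-induced cytokine, at 1.84 summed FPKM with siRNA 1, 2.97 with siRNA 2 and 6.51 in the control, and *PCK2*, the mitochondrial phosphoenolpyruvate carboxykinase, at 21.97, 14.4 and 41.4. The higher ones were *CTH*, which makes cysteine from cystathionine, at 6.88 summed FPKM with siRNA 1, 8.94 with siRNA 2 and 3.84 in the control, and *JDP2*, an AP-1 family repressor, at 45.7, 57.4 and 26.7. By single library, 6 of the 19 were at least 1.5-fold lower with siRNA 1 than in the control (5.47% of all genes) and 2 higher (6.18%). For siRNA 2 the counts against the control were 7 higher (13.2% of all genes) and 2 lower (10.1%). With siRNA 1 against siRNA 2, 8 of the 19 were at least 1.5-fold lower (13.7% of all genes) and 1 higher (10.5% of all genes). *NUPR1*, a stress-induced chromatin protein, was at 4.57 summed FPKM with siRNA 1, 33.6 with siRNA 2 and 9.18 in the control, and *STC2*, a secreted glycoprotein, was at 5.24, 13.5 and 15.6. *STC2* thus had the order seen in *PSAT1*, low with siRNA 1 alone. The median log2 difference of the 19 was -0.21 with siRNA 1 and 0.17 with siRNA 2.

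The other pathway lists held no gene called in both libraries, where 3.19% of all genes tested were called higher in both and 1.47% lower. Of 14 further genes of serine and one-carbon metabolism 12 were tested, with medians of -0.12 with siRNA 1 and -0.18 with siRNA 2, and *PSPH*, the last enzyme of serine synthesis, had log2 differences of -0.45 and -0.48. *MTHFD2*, a mitochondrial folate enzyme that ATF4 induces, was at 32.5 summed FPKM with siRNA 1, 19.1 with siRNA 2 and 42.5 in the control, so it was lowest with the siRNA with which *PHGDH* was highest. Amino acid transporters (11 tested of 12) had medians of -0.14 and -0.38. Of the 11, 3 were called lower with siRNA 2 (10.1% of all genes) and 0 higher (13.2%). For siRNA 1 the counts were 1 lower (5.47% of all genes) and 1 higher (6.18%). Among the transporters the cystine carrier *SLC7A11* was at 56.5 summed FPKM with siRNA 1, 14.9 with siRNA 2 and 32.8 in the control, and the leucine carrier *SLC7A5* at 202, 115 and 285. The 18 tRNA synthetase genes had medians of -0.13 and 0.01, with *VARS* at 9.11 summed FPKM with siRNA 1, 4.32 with siRNA 2 and 7.58 in the control.

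Upstream genes had list medians close to the control, and with siRNA 2 also close to that of the 10 genes. The 10 genes had medians of -0.37 with siRNA 1 and -0.14 with siRNA 2, and all genes tested -0.02 and 0.05. The 14 genes of the eIF2 kinases, eIF2 itself and its exchange factor and phosphatase had medians of -0.10 with siRNA 1 and -0.13 with siRNA 2. *EIF2AK3*, which encodes the kinase PERK, had log2 differences of 0.09 and 0.46, and *EIF2AK4*, which encodes the amino acid sensor GCN2, of -0.02 and -0.16. *IMPACT*, an inhibitor of GCN2 activation, was at 26.1 summed FPKM with siRNA 1, 9.61 with siRNA 2 and 10.4 in the control. *EIF2S3*, a subunit of eIF2, was at 234 summed FPKM with siRNA 1, 421 with siRNA 2 and 264 in the control. The 17 genes of the endoplasmic reticulum chaperones and the other arms of the unfolded protein response had medians of -0.07 and -0.12. *HSPA5*, the chaperone BiP, had log2 differences of -0.19 and 0.00. *XBP1*, a transcription factor of that response, was at 68.1 summed FPKM with siRNA 1, 143 with siRNA 2 and 106 in the control, and the cochaperone *DNAJB9* at 17.8, 8.88 and 17.5. Limma called 0 genes of any of these lists over all genes, where 0 of all genes tested passed. Of the 19 further ATF4 targets tested, 3 had an unadjusted p below 0.05 in it, as had 416 of all 13923 genes.

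**Figure D5:**
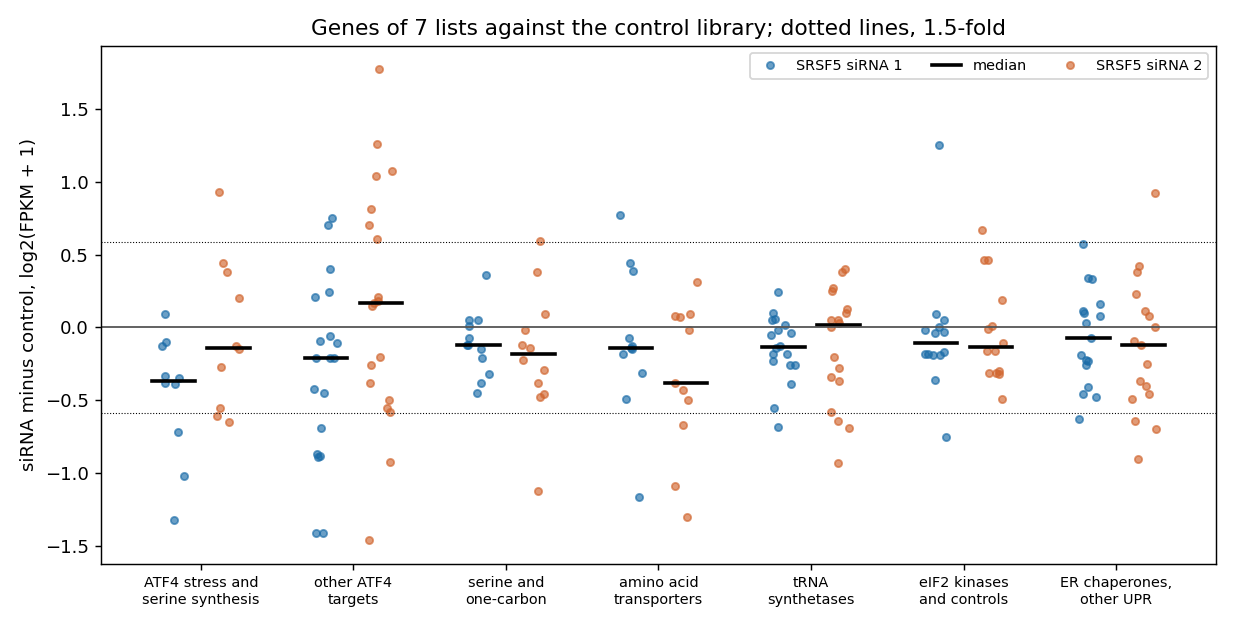
Log2 difference from the control library for the tested genes of 7 lists, with SRSF5 siRNA 1 left and SRSF5 siRNA 2 right in each list, bars at the medians and dotted lines at 1.5-fold. The 10 genes have medians of -0.37 with siRNA 1 and -0.14 with siRNA 2, and the further ATF4 targets -0.21 and 0.17.

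With 1 FPKM added, the gene of the 10 farthest from the control over both siRNAs was *PSAT1*, at a distance of 1.33 on the log2 scale. With 0.1 FPKM added *PSAT1* had differences of -1.34 and -0.15 with siRNA 1 and with siRNA 2, and *CHAC1* lay farther, at -1.55 and -0.92. Among 9869 other genes with a mean summed FPKM of at least 5, the nearest pairs of log2 differences, by Euclidean distance over the 3 libraries, were those of *MIR5703* (-1.28 with siRNA 1 and -0.07 with siRNA 2, distance 0.0877), *KLF3* (-1.33 and -0.25, distance 0.104) and *TBC1D4* (-1.23 and -0.09, distance 0.106). *KLF3* had a summed FPKM of 11.8 with siRNA 1, 26.0 with siRNA 2 and 31.0 in the control.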

How the data were processed

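RNA of 3 HaCaT libraries was analysed. The authors deposited FPKM for 247012 transcripts, with exons, strand and length, per the file headers. GRCm38, mm10 and GRCh38.p12 are builds in the submitters' processing notes, and no role is stated for any. Aligner and counter were not given in the sources used here. Exons of 101 of the 108 member transcripts were identical in GENCODE 29 (GRCh38).

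Multiplied by transcript length, 100% of FPKM values were whole multiples of a single step (tolerance 0.05), with 100 steps taken as 1 read. In genes with 1 transcript, counts above 0 were whole multiples of 100 steps in 44.6% with siRNA 1. The share was 43.8% with siRNA 2 and 43.5% in the control. As a check of strand, nested pairs of transcripts were compared in the control. The inner one exceeded the outer in 0 of 2134 pairs on the same strand and in 49 of 213 on opposite strands. With strand ignored an inner transcript could not exceed the outer, so counts were read as made by strand. Reads with several matches may be shared between near-identical genes. Transcripts off the chromosomes or in duplicate (20343) were left out.

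Genes are sums over transcripts, on log2(FPKM + 1), with a mean of at least 1. limma 3.58.1 (R 4.3.3, with trend) compared both siRNA libraries with the control, which is assumed to vary like them, and was tested on simulated data, where it called most large planted differences and few of the smallest. No count model was run on FPKM. Percents with an interval (Clopper-Pearson, 95%) are from read equivalents rounded to whole numbers. Alternatives were another gene level, pseudocount, filter, scaling, fold and limma setting, and each siRNA left out.

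The members, lists and rules were chosen with earlier results of these data known. All members are named, and from each other list the genes called in both siRNA libraries (at most 5) and the 2 farthest apart between the siRNAs. One such gene is not reported here. Other genes named were chosen for their role or after their values were seen.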

Additional observations from a re-analysis of the deposited data

How the results depend on the processing

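Of all genes tested, 649 were at least 1.5-fold from the control in both siRNA libraries, 1623 with siRNA 1, 3244 with siRNA 2, and 3378 were that far apart between the siRNAs. With the highest transcript in place of the sum these counts were 394, 1055, 2304 and 2411, and a 2-fold rule gave 141, 421, 1021 and 953. With a pseudocount of 0.1 FPKM 992 genes were called in both libraries. With 1 siRNA library left out the count ranged from 1623 to 3244, since then a single library decides. Of the 10 genes, 2 were called in both libraries, against 0 with the highest transcript, 0 with the 2-fold rule and 1 with a mean of at least 5 FPKM, a filter that removes CHAC1 and SESN2. The cause of the other moves was not tested. Limma called 0 genes in each setting apart from the robust spread, which called 3, none of them among the 10. The median of the 10 genes, averaged over the siRNAs, was -0.25 ± 0.16 (SD, n = 2) and ranged from -0.28 to -0.21 over gene level, pseudocount, filter and scaling. Of 116 log2 differences of the 10 genes under these settings 0 changed direction from a called value, and 4 crossed the limit of 1.5-fold: DDIT4 (-0.58) and CHAC1 (-0.50) with siRNA 2 on the highest transcript, and ASNS with siRNA 2 under median scaling (-0.59) and without mitochondrial transcripts (-0.61). No paired analysis was possible because the control is a single library. Limma could not be fitted with 1 siRNA library left out, which leaves no residual degree of freedom. Counting error limits CHAC1 and DDIT3 most.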
